A study of Homo sapiens with 8 samples.

Results

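The genes described are those of the cytosolic ribosomal proteins, the protein components of the ribosome that translates nuclear messenger RNA. They were taken as every gene whose symbol is RPL or RPS with a number, with or without a short suffix letter, together with RPLP0, RPLP1, RPLP2, RPSA and FAU. Kinases of the RPS6K family, RPS27L, pseudogenes and Y-linked genes were left out. RefSeq holds 85 genes that fit this rule. Of these, 60 were named by at least 1 probe set that names no other gene, out of 19775 genes so named on the array. A further 15 were named only by probe sets that also name other genes and are given no values here, among them RPL5, RPL4, RPL10 and RPS2, and 10 were not named. Where a gene has several probe sets, the one with the highest mean log2 signal stands for it. One of the 60, RPL3L, did not exceed the filter on low signals (a signal above 60.0 on at least 2 arrays), which left 59 tested genes: 30 of the large subunit, 21 of the small subunit, 2 of the stalk and 6 paralogs, near copies of a ribosomal protein encoded by a gene of their own.

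The series measured RNA on 8 Affymetrix 3' arrays from HEL cells, a human erythroleukaemia line that carries an activated form of the kinase JAK2. For the drug arm, cells received the JAK2 inhibitor CEP701 (lestaurtinib) at 0.5 µM for 16 h (2 arrays) or DMSO for the same time (2 arrays). For the shRNA arm, a stable line carried a pLKO lentivirus with 1 shRNA against PRMT5, a protein arginine methyltransferase (2 arrays), or a scramble shRNA (2 arrays). The series' stated purpose was to set the drug profile beside that of the knockdown. The labels do not say that replicates were separate cultures, so a p-value here reflects the spread between the arrays of a group, and that spread may be technical. An exact permutation test of 2 arrays against 2 cannot go below p = 0.333, so tests are limma's moderated test over 14162 genes with Benjamini-Hochberg adjustment.

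The ribosome is built from a large subunit, which joins amino acids, and a small subunit, which reads the messenger. Ribosomal protein messengers are known for a run of pyrimidines directly at the transcription start, the 5' terminal oligopyrimidine (TOP) motif. Through it the mTORC1 kinase pathway and the protein LARP1 control their translation together, so their output can change while their RNA does not. Red cell precursors need much ribosome synthesis, and inherited loss of 1 copy of RPS19, RPL5, RPL11 and other members causes Diamond-Blackfan anaemia, while loss of RPS14 is a feature of the 5q- form of myelodysplasia.

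The start-site sequences show this run in 6 members and 2 paralog windows in which it was not found. Each is RefSeq sequence of GRCh38.p14, from 80 bases before to 20 bases after the first listed start, written 5' to 3' on the gene's own strand. Capitals mark the pyrimidine run, defined as at least 6 bases of C and T that open with C within 2 bases of the start. The regions are chr5:82278335-82278434 (minus strand) for RPS23, the member of highest signal, chr2:101002209-101002308 (plus) for RPL31, chr20:62387023-62387122 (plus) for RPS21, chr3:197950110-197950209 (plus) for RPL35A and chr1:6199576-6199675 (minus) for RPL22. The paralogs shown lie at chr3:170870176-170870275 (minus) for RPL22L1, chr5:172958649-172958748 (plus) for RPL26L1 and chr14:46651762-46651861 (minus) for RPL10L.
RPS23: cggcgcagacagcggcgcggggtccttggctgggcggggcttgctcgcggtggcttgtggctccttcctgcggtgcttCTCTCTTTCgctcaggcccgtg
RPL31: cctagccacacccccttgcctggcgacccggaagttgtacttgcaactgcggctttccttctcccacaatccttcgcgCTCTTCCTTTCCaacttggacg
RPS21: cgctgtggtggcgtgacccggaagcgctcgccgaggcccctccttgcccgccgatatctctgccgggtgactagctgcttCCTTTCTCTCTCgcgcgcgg
RPL35A: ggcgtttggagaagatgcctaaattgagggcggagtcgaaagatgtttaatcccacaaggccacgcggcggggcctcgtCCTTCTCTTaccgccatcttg
RPL22: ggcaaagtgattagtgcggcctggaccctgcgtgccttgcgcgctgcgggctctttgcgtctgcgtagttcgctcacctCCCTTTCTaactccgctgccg
RPL22L1: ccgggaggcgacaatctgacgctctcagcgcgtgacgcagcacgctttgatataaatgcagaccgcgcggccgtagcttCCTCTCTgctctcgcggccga
RPL26L1: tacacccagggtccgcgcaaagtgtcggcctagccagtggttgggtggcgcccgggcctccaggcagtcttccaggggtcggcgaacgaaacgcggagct
RPL10L: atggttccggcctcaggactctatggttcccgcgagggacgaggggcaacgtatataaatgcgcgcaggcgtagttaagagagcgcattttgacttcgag

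The run was 12 bases long in RPL31 and RPS21, 9 in RPS23 and RPL35A, 8 in RPL22 and 7 in RPL22L1, and these letters were not in the window of RPL26L1 or RPL10L. Of the 85 genes, 68 matched a promoter entry, and 44 of the 68 (64.7%) held a run, with a median length of 9 and a longest of 19. A start listed a few bases from the true one would hide a run under this definition. The share was 7.47% of 15843 protein-coding promoters (1184) and 2.9% of 69 mitochondrial ribosomal protein promoters (2). By class the run was present in 21 of 35 large-subunit, 19 of 25 small-subunit, 3 of 3 stalk and 1 of 5 paralog genes, the last being RPL22L1. Short motifs were searched on both strands of the 300 bases from 250 before to 50 after the start. CGCGAGA was found in 23.5% of cytosolic, 5.8% of mitochondrial ribosomal and 4.96% of all promoters. CTCTTTCC was found in 13.2%, 1.45% and 3.15%, and CTTTCC, which it contains, in 45.6%, 33.3% and 26.5%. CCGGAAG was found in 32.4%, 42.0% and 14.2%, so it was no more frequent in the cytosolic than in the mitochondrial set. TATAAA was found in 10.3%, 2.9% and 9.63%. A match describes the letters in the window and is not a measured binding site.

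Some facts of the whole series bear on these genes. PRMT5 read 489 ± 247 (SD, n = 2) in the shRNA cells and 1389 ± 572 in scramble cells, a log2 difference of -1.52 ± 0.35 (SE) that had an adjusted p of 0.217 in limma and 8.92e-05 with the replicate block. It differed by -0.20 with CEP701 (adjusted p = 0.766, limma). Across genes, Pearson's r between arrays was 0.964 to 0.978 within a group and 0.804 to 0.845 between arms. The erythroid markers summed to 68880 to 77420 in the drug arm and 47260 to 61510 in the shRNA arm. TFRC made up most of both sums (42290 to 51630 against 33290 to 44570). EPOR went the other way (205 to 540 against 541 to 723), and ANK1 and ALAS2 overlapped between the arms. GATA1, KLF1, TAL1 and TFRC were present in both, whereas the embryonic globin HBE1 read 9433 to 11720 against 298 to 786 and HBZ 140 to 200 against 3.84 to 72.2. The granulocyte and monocyte markers summed to 5398 to 9085 in the drug arm and 40470 to 68690 in the shRNA arm. LYZ made up most of the first sum (5252 to 8863, against 25740 to 40580), while MPO read 4.13 to 63.5 against 10910 to 20590 and CD14 2.09 to 16.5 against 1224 to 2289. Summed megakaryocyte markers were 12230 to 12560 against 48180 to 111600, lymphocyte markers 1563 to 2116 against 686.8 to 811.3, and epithelial and fibroblast markers 493.2 to 687.2 against 1523 to 5915. PF4 (1054 to 1980 against 21810 to 45440) and PPBP carried the megakaryocyte difference. VWF was also higher in the shRNA arm (10.6 to 94.3 against 387 to 2202), while ITGA2B, GP9, GP6 and GP1BA overlapped. CD2 (853.5 to 1234 against 98.3 to 168) carried the lymphocyte difference, and CD3D went the other way. EPCAM and CDH1 carried the epithelial difference, and COL1A1 went the other way (338 to 476 against 199 to 261). The ratio of the 5' to the 3' actin control, which falls as RNA is shortened, was 0.116 and 0.161 on the CEP701 arrays, 0.199 and 0.198 on the DMSO arrays, 0.187 and 0.335 on the PRMT5 shRNA arrays, and 0.141 and 0.179 on the scramble arrays. The part of these in the results below was not tested. In bulk RNA, fewer cells of a type and less RNA per cell cannot be told apart.

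Ribosomal protein probe sets lay at the top of the intensity scale of every array. Of the 53 tested large-subunit, small-subunit and stalk genes, 50 had a mean signal above 10000, and 49 of those 50 ranked among the 100 highest of 14162 genes. The lowest of the 50, RPL36, ranked 110. Together the 50 made up 4.24% to 5.09% of an array's summed signal. The median of the 50 was 51970 and 49200 on the CEP701 arrays, 46630 and 53600 on the DMSO arrays, 46890 and 40960 on the PRMT5 shRNA arrays, and 48190 and 43750 on the scramble arrays. As group means these were 50580 ± 1959 (SD, n = 2) for CEP701, 50120 ± 4929 for DMSO, 43920 ± 4193 for PRMT5 shRNA and 45970 ± 3140 for scramble. Treated and control arrays overlapped in both arms, and the 2 DMSO arrays lay further apart from each other than the 2 drug group means did.

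**Figure D1:**
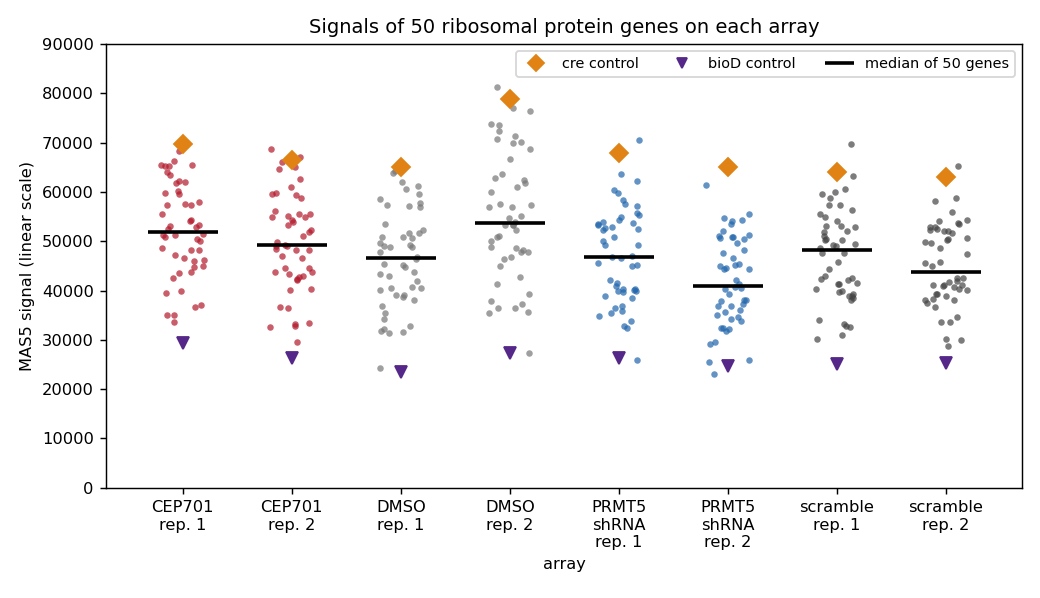
MAS5 signal (linear scale) of the 50 ribosomal protein genes with a mean above 10000 on each of the 8 arrays, 1 point a gene, with a black bar for the median, an orange diamond for the cre control and a purple triangle for the bioD control. The medians run from 40960 on the second PRMT5 shRNA array to 53600 on the second DMSO array, and the points lie mostly between both controls on every array.

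Probe set signals depend on the probes as well as on the RNA, so their order is not an order of transcript levels. The median of the 50 was 62.9% to 74.6% of the highest signal on its array. The cre control, an added transcript among the brightest on the array, was matched closely by the brightest of the 50, which reached 94.4% to 109% of it. At least 49 of the 50 exceeded the bioD control on each array. Whether bright probes were near their upper limit, which would compress differences, was not tested.

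The 3 highest members by mean signal were RPS23, RPL37A and RPS19. RPS23, which lies at the decoding centre of the small subunit, read 68380 and 68702 with CEP701, 63842 and 73873 in DMSO cells, 70507 and 61442 with PRMT5 shRNA, and 69765 and 65274 with scramble. RPL37A, of the large subunit, read 65368 and 67007, 61982 and 76506, 63623 and 55516, and 63246 and 58801 in the same order. RPS19, the gene most often mutated in Diamond-Blackfan anaemia, read 65516 and 64704, 61204 and 77103, 62315 and 52085, and 60672 and 58084. For each of the 3, the second DMSO array was the highest of the 8 and the second PRMT5 shRNA array the lowest, and both drug arrays lay between the DMSO arrays. The 3 lowest tested members were RPL36A (mean 62.6), RPL10L (209) and RPLP2 (268).

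No ribosomal protein gene passed the test between CEP701 and DMSO, either way, although 5.78% of all genes did (3.74% higher and 2.04% lower). At an unadjusted p under 0.05 in limma 4 of 59 passed, against 24% of all genes. The median log2 difference was 0.02, against 0.10 over all genes, and 34 of 59 lay above 0. That sign depends on the scaling of the arrays, since the median was -0.20 with arrays set to equal medians and -0.48 with arrays set to the added poly-A controls, where all genes had medians of -0.12 and -0.40. It also turned with the DMSO array left out: -0.10 without the first and 0.12 without the second. Both drug arrays exceeded both DMSO arrays for 9 members and lay below them for 2, against 36.3% and 25.7% of all genes.

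The differences of the bright members were small and their intervals narrow. Among the 50 genes above 10000 the log2 difference ran from -0.14 to 0.32, and the 95% intervals reached no further than -0.46 and 0.63. For 49 of the 50 the whole interval lay within a 1.5-fold change on this scale. The large-subunit median was 0.05 (20 of 30 above 0) and the small-subunit median -0.003 (10 of 21 above 0). The stalk gene RPLP1, whose protein recruits the factors that drive translation, read 61762 and 59690 against 56896 and 69872, and RPLP2, its partner, read 253 and 377 against 251 and 292. Their log2 differences were -0.05 and 0.18, and their groups overlapped.

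Of the members linked to blood disease, RPS19 differed by -0.08 ± 0.14 (SE), RPL11 by 0.03 ± 0.12, RPS14 by -0.07 ± 0.14 and RPS10 by -0.07 ± 0.13 with CEP701. The same genes differed by -0.06, -0.07, -0.04 and -0.02 with PRMT5 shRNA, on the same log2 scale. RPL11, which with RPL5 binds the p53 inhibitor MDM2 when ribosome assembly stalls, read 50761 and 48130 with CEP701, 44782 and 52332 in DMSO cells, 41527 and 38024 with PRMT5 shRNA, and 42409 and 40934 with scramble. RPS14 read 51407 and 48410, 47753 and 57352, 52875 and 44888, and 50297 and 49932 in that order. Neither gene separated the drug groups. Of 19 listed Diamond-Blackfan genes, 14 were tested and 0 passed in any comparison, with 0, 1, 1 and 0 at an unadjusted p under 0.05 in limma for CEP701, PRMT5 shRNA, the difference of these effects and the controls of both arms. Of all genes 5.78%, 0.148%, 1.43% and 45.8% passed in that order, and 24%, 6.69%, 19.9% and 52.9% had such an unadjusted p. With the shRNA replicate block RPL35A was higher in the difference of effects (adjusted p = 0.0460, limma), where 9.4% of all genes were. It was lower between the controls (adjusted p = 0.0226, limma), where 25.2% of all genes were.

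The members nearest to passing with CEP701 were 3 dimmer genes, RPL36A, RPL26L1 and RPL39L, and 2 of the bright group, RPL36 and RPL34. RPL36A, a large-subunit protein near the tRNA exit site represented here by a dim probe set, read 46.8 and 66.4 with CEP701, against 12 and 4.87 with DMSO. The groups did not overlap, and the log2 difference was 1.86 ± 0.47 (adjusted p = 0.0519, limma). All 4 values lie near or below the filter level of 60.0, so the size depends on the added 10. The signal exceeded that level on 5 arrays, those of the shRNA arm and the second CEP701 array. RPL36A thus entered the test through the arrays where it is high. RPL26L1, a paralog of RPL26, read 6898 and 6293 with CEP701 and 4470 and 4645 with DMSO, again without overlap. Its log2 difference was 0.53 ± 0.17 (adjusted p = 0.0937, limma), and it passed with the shRNA arrays blocked by replicate (adjusted p = 5.55e-03). RPL36A passed with that block too (adjusted p = 0.0236), so 2 members were higher where 12.6% of all genes were. Over the alternatives run, RPL26L1 passed in 5 of 22 and RPL36A in 5 of 22.

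RPL39L, a paralog of RPL39 known chiefly from the testis, read 18.8 and 124 with CEP701 and 151 and 154 with DMSO. Its log2 difference of -1.39 ± 0.58 did not pass (adjusted p = 0.181, limma), and it was -0.28 without the first CEP701 array and -2.50 without the second. RPL36, the lowest of the bright group and a large-subunit protein, read 35006 and 29575 against 24255 and 27270, a log2 difference of 0.32 ± 0.13 (adjusted p = 0.182, limma). RPL34 read 44703 and 40216 against 35463 and 37959, a log2 difference of 0.21 ± 0.12 (adjusted p = 0.324, limma). For both, the drug arrays lay above the DMSO arrays, but the RPL36 difference turned to -0.18 with poly-A scaling.

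**Figure D2:**
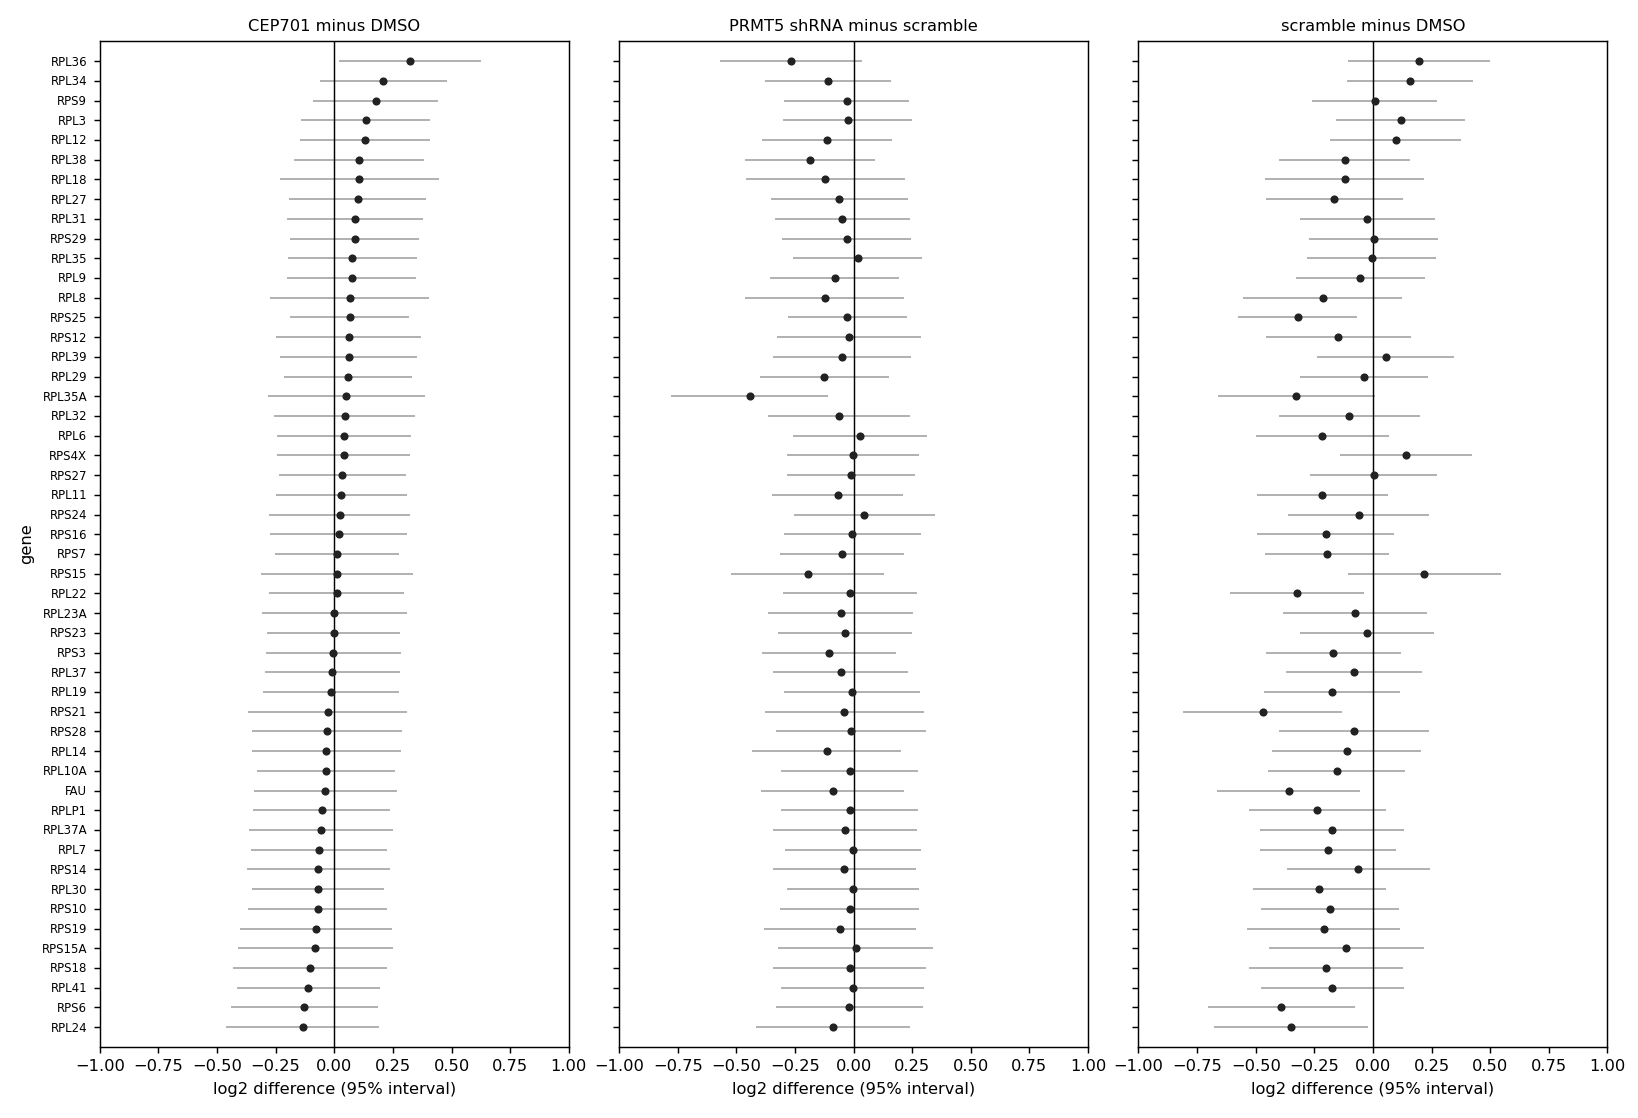
Log2 difference with its 95% interval for each of the 50 ribosomal protein genes with a mean signal above 10000, in panels for CEP701 minus DMSO, PRMT5 shRNA minus scramble and scramble minus DMSO (8 arrays, 2 a group). The points lie between -0.14 and 0.32 in the first panel, between -0.44 and 0.05 in the second and between -0.47 and 0.22 in the third.

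A different picture came from the additional probe sets of the same genes. Here every single-gene probe set past the filter was fitted as its own entry (26719 in all), a fit added after the gene results were seen. The members have 49 probe sets besides the brightest of each gene, belonging to 29 genes. With CEP701, 10 of the 49 rose and 0 fell, where 2.22% of the 12557 such probe sets of all genes rose and 1.62% fell. The median log2 difference of the 49 was 0.18 against 0.09 for all such sets, and 32 of 49 lay above 0, a share to be set against 56.8%. The 10 sets belong to 7 genes, and their mean signals ran from 97.9 to 13690. The brightest sets of those 7 genes differed by -0.08 to 0.09, and none passed (lowest adjusted p = 0.725, limma).

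The RPL37 and RPL31 sets had the lowest adjusted p among them. RPL37, a zinc-binding protein of the large subunit, read 3649 and 3813 with CEP701 against 1040 and 1022 with DMSO at 224763_at, a log2 difference of 1.85 ± 0.17, or 3.59-fold (adjusted p = 0.00129, limma). At 224767_at it read 2402 and 2020 against 650 and 583, a log2 difference of 1.82 ± 0.18 (adjusted p = 0.00167, limma). Its brightest set, 200092_s_at, read 57892 and 55217 against 51755 and 62446, a difference of -0.01. The fourth, 224766_at, read 473 and 530 against 274 and 192, a log2 difference of 1.09 ± 0.27 that did not pass (adjusted p = 0.0504, limma). So at 3 of the 4 sets both drug arrays lay above both DMSO arrays, and at the brightest they overlapped.

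RPL31, which lies by the exit of the tunnel for the new protein chain, read 3457 and 3325 with CEP701 against 1087 and 1199 with DMSO at 200962_at. That is a log2 difference of 1.56 ± 0.18 (adjusted p = 0.00370, limma). At 221593_s_at it read 1889 and 1839 against 1172 and 881, a log2 difference of 0.87 ± 0.18 (adjusted p = 0.0273, limma). Its brightest set, 200963_x_at, read 61985 and 58752 against 52211 and 61735, with overlap. RPL22, a large-subunit protein that also binds viral and cellular RNA, showed the same order at higher signals at some of its additional sets. It read 18280 and 17960 against 12750 and 13000 at 214042_s_at (log2 difference 0.49 ± 0.12, adjusted p = 0.0439, limma) and 16830 and 16280 against 10140 and 11040 at 221726_at (0.65 ± 0.13, adjusted p = 0.0264). Its brightest set, 220960_x_at, read 48275 and 46952 against 43763 and 51048. At its other additional sets, 221775_x_at and 208768_x_at, the groups overlapped, with log2 differences of 0.009 and 0.02.

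**Figure D3:**
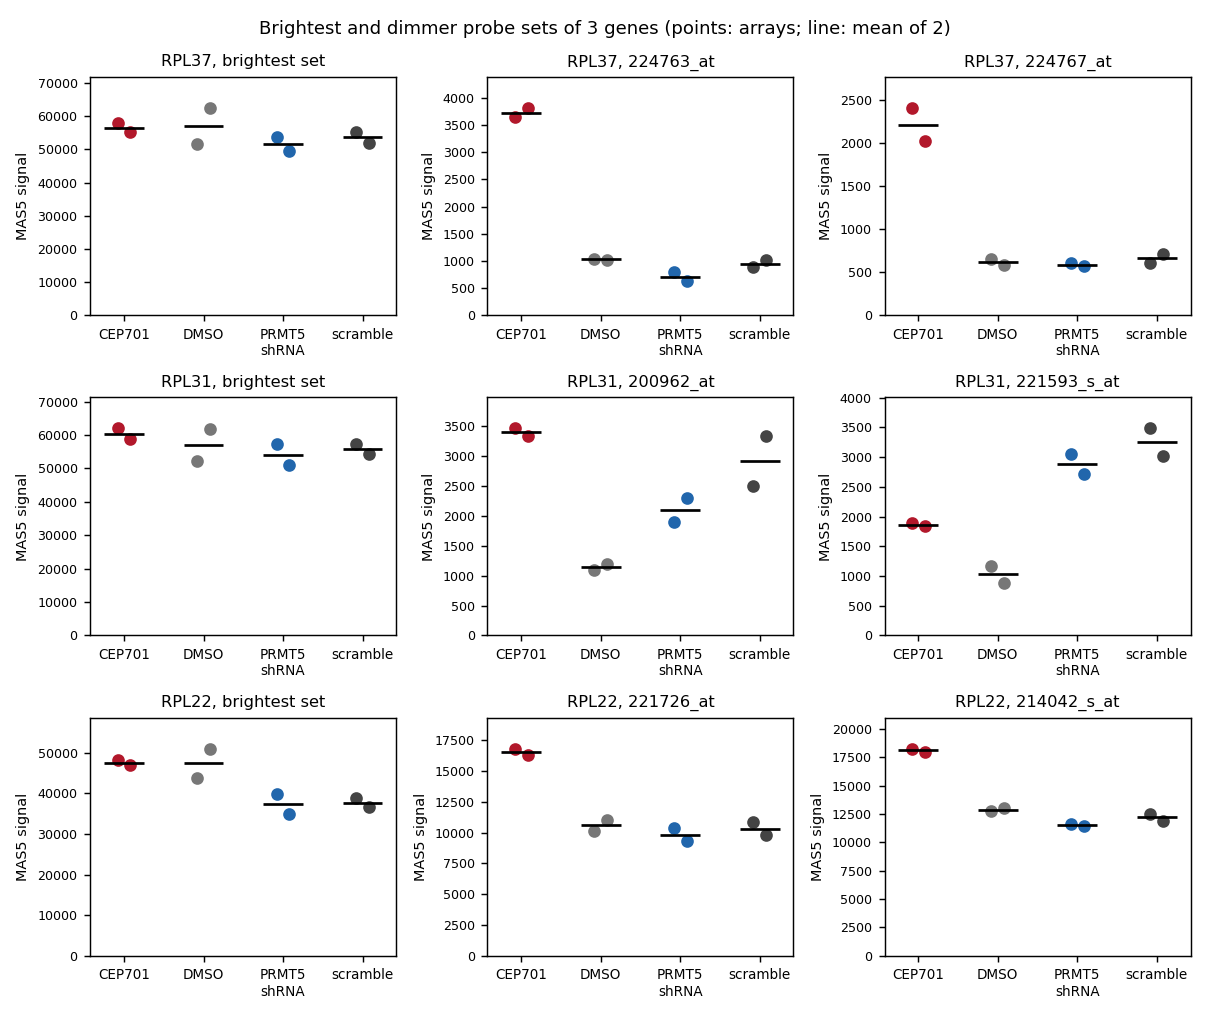
MAS5 signal of probe sets of RPL37, RPL31 and RPL22 on each of the 8 arrays, 1 point an array and a bar for the group mean (n = 2), with each panel starting at 0. The dimmer sets drawn are those that passed as higher with CEP701, so they are high on both CEP701 arrays against both DMSO arrays by choice. The brightest set of each gene overlaps between the groups.

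The remaining sets that rose were dimmer. RPS15A at 235309_at read 1291 and 1171 against 431 and 627 (log2 difference 1.23 ± 0.23), and RPS28 at 208903_at read 619 and 555 against 282 and 234 (1.16 ± 0.26). RPS29, a zinc-binding protein of the small subunit head, read 319 and 401 against 106 and 112 at 238824_at (1.63 ± 0.34). RPL35A at 215208_x_at read 55.4 and 122 against 18.4 and 16.3, a log2 difference of 1.76 ± 0.43. That size depends on the added 10, since the DMSO values lie below the filter level of 60.0. The signal of this set exceeded that level on 5 arrays, all those of the shRNA arm and the second CEP701 array. The set thus entered the test through the arrays where it is high, and over the alternatives it passed in 3 of 17. In all 10 sets both drug arrays exceeded both DMSO arrays, which their choice by the test all but fixes. The same held for 23 of the 49 additional sets. That share was not computed for the additional sets of all genes. At the brightest sets of all genes, an unlike class, it was 36.3%. Of the other 7 additional sets of these genes, 6 lay above 0 and 0 passed, with a lowest adjusted p of 0.0504 in limma.

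Dim and bright additional sets differed in their values. Of 30 additional sets below a mean of 20000, a level chosen after the values were seen, 23 lay above 0, the median was 0.49 and 10 passed. Of 19 at or above it, 9 lay above 0, the median was -0.02, the range was -0.08 to 0.43 and 0 passed (lowest adjusted p = 0.0740, limma). Every set that passed had a mean of at most 13690, so a level above that fixes the split of 10 and 0. The shares among additional sets of all genes in the same signal ranges were not computed. Which part of a transcript each set covers was not used here, so sets for introns, late ends or near copies cannot be told from sets for the spliced messenger. The count of 10 was 1 without the first CEP701 array, 2 without the second, 3 without the first DMSO array and 2 without the second, each of which leaves a group with 1 array. It was 5 with no filter, 5 with equal medians and 3 with poly-A scaling, and all 10 sets kept a positive difference in each of these except that 9 of 10 did with poly-A scaling. RPL37 at 224763_at passed in 19 of 19 alternatives, with differences of 1.34 to 1.88.

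**Figure D4:**
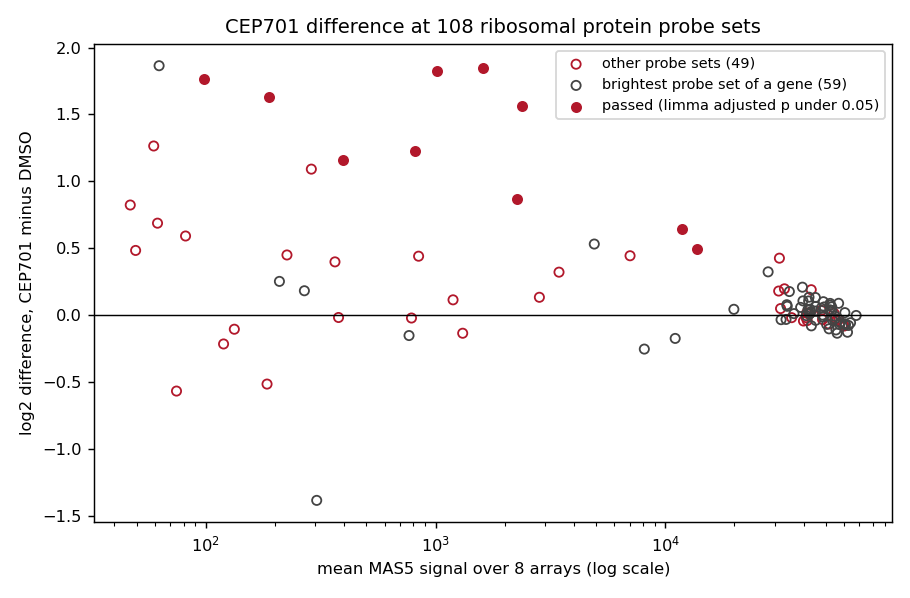
Log2 difference between CEP701 and DMSO against the mean MAS5 signal over 8 arrays (log scale) for the 108 ribosomal protein probe sets that passed the filter, marked by whether the set is its gene's brightest and whether it passed the test. The 10 sets that rose have mean signals from 97.9 to 13690, and the sets above 20000 lie between -0.14 and 0.43.

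With PRMT5 shRNA no member passed against scramble, where 0.148% of all genes did (0.00706% higher and 0.141% lower), and 1 of 59 had an unadjusted p under 0.05 in limma, against 6.69% of all genes. The differences were small and mostly of 1 sign: 53 of 59 lay below 0, with a median of -0.04 against 0.003 over all genes. With poly-A scaling 31 of 59 lay below 0 and with arrays scaled to the bright members 19 did. The latter scaling makes the median of the bright members equal on all arrays, so it cannot test this sign. The median of the 59 was -0.13 without the first PRMT5 shRNA array and 0.04 without the second, so its sign rested on the second array. Both shRNA arrays lay below both scramble arrays for 7 members and above them for 0, against 16.1% and 14.1% of all genes. The second PRMT5 shRNA array had the highest 5' to 3' actin ratio of the 8 (0.335), and the part of that in the result was not tested.

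RPL35A had the lowest p of the members. It is a large-subunit protein and a Diamond-Blackfan gene, and read 35882 and 29604 with PRMT5 shRNA against 47684 and 41200 with scramble. The groups did not overlap, and the log2 difference was -0.44 ± 0.15 (adjusted p = 0.558, limma). Within the replicate pairs it was -0.41 and -0.48, and the adjusted p with the block was 0.0733. Another bright set of the gene, 213687_s_at, differed by -0.16. RPL36 differed by -0.27 ± 0.13 (adjusted p = 0.785, limma), RPL38 by -0.19 ± 0.12 (0.850), RPS15 by -0.20 ± 0.14 (0.872) and RPLP2 by -0.38 ± 0.33 (0.901).

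In the bright group the range was -0.44 to 0.05, and for 49 of the 50 genes the interval lay within a 1.5-fold change. The large-subunit median was -0.06 (27 of 30 below 0) and the small-subunit median -0.03 (19 of 21 below 0). The 49 additional probe sets gave 0 calls, with differences of -0.55 to 0.78 and a lowest adjusted p of 0.725 in limma. The 10 sets that rose with CEP701 differed by -0.47 to 0.21 with PRMT5 shRNA, 8 of them below 0.

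The difference of the drug and shRNA effects was tested directly. Of the 59 genes 0 passed, against 1.43% of all genes (1.11% higher and 0.325% lower), and 3 had an unadjusted p under 0.05 in limma, against 19.9%. The median was 0.06 against 0.11 over all genes. RPL36 had 0.59 ± 0.19 (adjusted p = 0.142, limma) and RPL35A 0.49. With the shRNA replicate block both passed (adjusted p = 0.0235 and 0.0460), where 9.4% of all genes were higher. Among the additional probe sets 3 of 49 passed, all higher, where 0.51% of such sets of all genes were higher. They were both RPL37 sets, with differences of effects of 2.26 and 1.99, and RPL31 at 200962_at, with 2.03.

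The controls of both arms, scramble and DMSO, differed in 45.8% of all genes, 25.5% higher and 20.3% lower in scramble cells. Arm, lentiviral vector, any batch and any difference in the state or identity of the cells cannot be told apart in this comparison. Both arms are labelled HEL. Several of the blood cell markers listed above, MPO and HBE1 among them, differ between the arms, while others overlap. Of the 59 members 7 passed, 4 higher and 3 lower, so the members' share was well under that of all genes. Their median was -0.11 against 0.11 over all genes, and it was 0.05 with quantile normalization. With arrays scaled to the bright members it was 0.01, a value near 0 that this scaling fixes in advance. Both scramble arrays lay above both DMSO arrays for 9 members and below them for 22, against 40.8% and 33.3% of all genes.

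The members that were higher in scramble cells were 3 paralogs and RPL36A. RPL22L1, the paralog of RPL22, read 16446 and 13018 in scramble and 17810 and 11586 in PRMT5 shRNA cells, against 7643 and 7975 with DMSO and 7245 and 6604 with CEP701. All 4 arrays of the shRNA arm exceeded all 4 of the drug arm, and the log2 difference between controls was 0.91 ± 0.20 (adjusted p = 5.13e-03, limma). RPL39L read 538 and 511 in scramble, 548 and 385 in PRMT5 shRNA, 151 and 154 in DMSO and 18.8 and 124 in CEP701 cells, a control difference of 1.72 ± 0.58 (adjusted p = 0.0348, limma). RPL10L, an intronless paralog of RPL10 known from male germ cells, read 300 and 282, 227 and 358, 163 and 73.6, and 117 and 151 in the same order, a difference of 1.32 ± 0.38 (adjusted p = 0.0188, limma).

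For RPL39L and RPL10L too, every array of the shRNA arm lay above every array of the drug arm. RPL36A read 102 and 93.4 in scramble cells against 12 and 4.87 with DMSO, and it passed (adjusted p = 1.79e-03, limma). Its signal exceeded the filter level of 60.0 on 5 of the 8 arrays, the 4 of the shRNA arm and 1 of CEP701. It thus entered the test through the arrays where it is high, and its fitted difference of 2.57 depends on the added 10. Over the alternatives RPL22L1 passed in 19 of 21, RPL10L in 16 of 21 and RPL39L in 12 of 20. With 1 array left out the number of higher members was 2 to 4, with 2 when either scramble array or the second DMSO array was left out, and it was 1 with poly-A scaling.

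The other paralogs showed no such step. RPL36AL, the autosomal copy of RPL36A, read 22104 and 20788 in scramble, 22379 and 19350 in PRMT5 shRNA, 18020 and 18594 in DMSO and 19852 and 17923 in CEP701 cells, a control difference of 0.23 ± 0.13 (adjusted p = 0.173, limma). RPL7L1, a paralog of RPL7 that acts in assembly of the large subunit, read 9455 and 8017, 8898 and 6980, 8369 and 8620, and 5927 and 8553, a difference of 0.04 ± 0.19. RPL26L1 differed by -0.17 ± 0.17. RPL3L, the muscle paralog of RPL3, did not pass the filter, with signals of 1.80 to 42.5 on the 8 arrays.

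**Figure D5:**
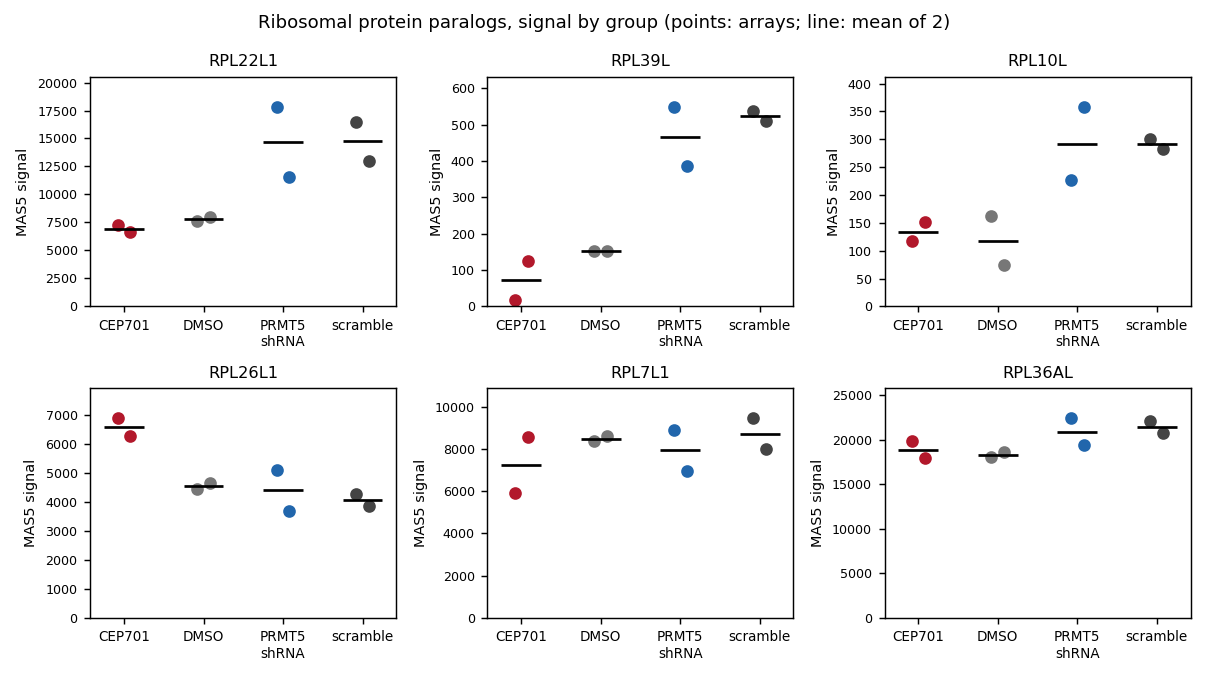
MAS5 signal of the ribosomal protein paralogs on each of the 8 arrays, 1 point an array and a bar for the group mean (n = 2), with each panel on its own scale from 0. RPL22L1, RPL39L and RPL10L are higher on all 4 arrays of the shRNA arm than on all 4 of the drug arm, and RPL26L1 is highest on both CEP701 arrays.

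The members that were lower in scramble cells were small-subunit genes. RPS21 read 50404 and 42554 in scramble and 49174 and 41233 in PRMT5 shRNA cells, against 57767 and 71250 with DMSO and 63349 and 62554 with CEP701. The control difference was -0.47 ± 0.15 (adjusted p = 0.0290, limma), and its dimmer set, 214097_at, read 3628 and 2887 against 8582 and 9869 (-1.50 ± 0.22, adjusted p = 4.52e-04). RPS25, which sits in the head of the small subunit, read 41398 and 37999 against 49004 and 50080 (-0.32 ± 0.11, adjusted p = 0.0419, limma). RPS6, the target of the S6 kinases, read 57258 and 52942 against 64280 and 81198 (-0.39 ± 0.14, adjusted p = 0.0441, limma). Without the second DMSO array, the brightest for RPS6, 0 members were lower, and the same was true without the second scramble array or either CEP701 array. With the shRNA replicate block 7 were lower, where 25.2% of all genes were. The 4 added by the block were FAU, RPL22, RPL24 and RPL35A. Of the 49 additional probe sets 5 were higher and 4 lower in scramble cells, against 22.2% and 15.1% of such sets of all genes. Both dimmer RPL31 sets were among the higher: 200962_at read 2500 and 3337 in scramble and 1902 and 2288 in PRMT5 shRNA cells (control difference 1.33 ± 0.18, adjusted p = 2.78e-04, limma), and 221593_s_at read 3483 and 3026 and 3055 and 2720 (1.67 ± 0.18, adjusted p = 6.26e-05). For these sets the DMSO arrays were thus the lowest of the 8, whereas at both RPL37 sets the CEP701 arrays stood above the other 6 arrays.

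Genes that act with the ribosomal proteins were summarised from lists chosen with earlier results of these data known. The 48 tested genes of ribosome synthesis and the nucleolus had a median log2 difference of -0.49 with CEP701, with 43 below 0, 5 that fell and 0 that rose. Over all genes the median was 0.10, 5939 of 14162 lay below 0, 2.04% fell and 3.74% rose. POLR1G, a subunit of RNA polymerase I, went from 1412 ± 29.4 (SD, n = 2) with DMSO to 390 ± 31.0 (-1.83 ± 0.32, adjusted p = 0.0175, limma), and EMG1, a methyltransferase of the small-subunit RNA, from 8661 ± 325 to 3359 ± 364 (-1.37 ± 0.27, adjusted p = 0.0262). UTP18, of the small-subunit processome, fell by 0.75 on the log2 scale (adjusted p = 0.0358, limma). Among the 9 tested chaperones of ribosomal proteins, 9 lay below 0 and 1 fell, RPS19BP1 (-0.64 ± 0.16, adjusted p = 0.0493, limma). BCCIP (-0.76) and GRWD1 (-0.94) did not pass, but did with the replicate block (adjusted p = 3.89e-04 and 0.00255, limma). Of 75 mitochondrial ribosomal protein genes, 62 lay below 0 with a median of -0.30, and 3 fell: MRPS6 (-0.81), MRPL42 (-0.90) and MRPS5 (-0.67).

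The medians of these 3 lists stayed below 0 with CEP701 under every scaling and with each array left out. Their counts did not: without either CEP701 array or either DMSO array all 3 had 0 calls, and with the shRNA replicate block 27 synthesis, 5 chaperone and 31 mitochondrial genes fell, where 9.71% of all genes did. With PRMT5 shRNA their medians were 0.13, 0.13 and 0.10, against 0.003 over all genes, with 0 calls where 0.148% of all genes passed. The sign of these medians did not hold over the alternatives. They ran from -0.159 to 0.39, from -0.115 to 0.395 and from -0.119 to 0.313. At an unadjusted p under 0.05 in limma there were 0, 0 and 1, where 6.69% of all genes were. With the replicate block, MRPL24 (-0.78, adjusted p = 0.0146, limma) and MRPL20 (0.44, adjusted p = 0.0390, limma) passed, and 1 synthesis gene was higher. Of all genes 0.318% were higher and 1.43% lower with that block. Between the controls 31 of 48 synthesis and 54 of 75 mitochondrial genes were lower in scramble cells, with medians of -1.03 and -0.88. Beside them 3 of 59 cytosolic genes and 20.3% of all genes were lower.

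Other messengers that begin with a TOP motif gave 1 call in 19 tested genes with CEP701, where 5.78% of all genes passed (3.74% higher). EIF4B, a cofactor of the eIF4A helicase, rose by a log2 difference of 0.49 ± 0.12 (adjusted p = 0.0484, limma), from 7889 ± 160 to 11050 ± 353, and did not pass with any 1 of the 4 drug-arm arrays left out. EIF3F (0.45, adjusted p = 0.0619) and HNRNPA1 (0.41, adjusted p = 0.153) did not pass. With the replicate block both did (adjusted p = 0.00822 and 0.0470, limma), and 5 genes of the list were higher, where 12.6% of all genes were. The list's median was 0.13, and -0.09 with equal medians and -0.38 with poly-A scaling. Of 18 genes that control TOP messengers and mTORC1, 1 fell with CEP701, where 2.04% of all genes did. It was LARP4, an RNA-binding protein that stabilises messengers (-0.68 ± 0.15, adjusted p = 0.0363, limma). DDIT4, an mTORC1 inhibitor, differed by 1.10 ± 0.28 with CEP701 (adjusted p = 0.0521) and by -1.69 ± 0.28 with PRMT5 shRNA (adjusted p = 0.0766, limma), with signals of 10550 ± 3715 in scramble and 3271 ± 1223 in PRMT5 shRNA cells. It passed in both comparisons with the replicate block (adjusted p = 6.49e-05 and 1.35e-05). RHEB, the activator of mTORC1, differed by -0.50 with CEP701 and did not pass (adjusted p = 0.0669, limma), but did with the block (adjusted p = 0.00919).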

How the data were processed

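RNA was measured on 8 arrays in 4 groups of 2. The deposited file gives 1 linear signal intensity for each probe set and array. The authors made these with MAS5 in Affymetrix Expression Console, per the submitters' processing notes, where no version is stated. The genome build is not given in the sources used here. Each array's mean without its lowest and highest 2% of values is the same. Probe sets were named from the platform annotation: of 54675 sets, 41097 name 1 gene, 1801 several and 11777 none, and 62 are controls. For the tests, 10 was added and log2 taken, probe sets were kept with a signal above 60.0 (the median over the whole file) on 2 or more arrays, and a gene was read from whichever set was highest in mean log2 signal. The 14162 genes were fitted with limma 3.58.1 (eBayes with a trend, 4 residual and 5.37 prior degrees of freedom) in R 4.3.3, with version 1.17.8 of the package data.table. Benjamini-Hochberg adjustment ran over all genes of a comparison, and 0.05 was the threshold. The added 10 is part of every fold change. The calculation was tested on simulated data. Array number limits the precision.

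The members and gene lists were chosen with earlier results of these data known. Named are members that pass (up to 10 a direction), otherwise those of lowest p up to 5, the 3 highest and 3 lowest by signal, stalk and paralog genes, RPS19, RPL5, RPL11, RPS14 and RPS10, up to 3 genes of each other list by lowest p with CEP701 and PRMT5 shRNA, and PRMT5. Probe sets named singly were chosen after their values were seen. The shRNA arrays share a title suffix by replicate, and deviations of paired arrays from their group means had r = 0.323 over genes. Results with the replicate as a block are therefore given where they change the call of a gene whose test is given. The drug arrays share only a number (r = -0.0115). Alternatives were other added constants, filters, scalings, probe set rules, arms fitted alone, blocks and each array left out. Probe sets that name several genes were left out.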

Additional observations from a re-analysis of the deposited data

Results flagged for a closer look

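At 3 probe sets of ribosomal protein genes the CEP701 and PRMT5 shRNA effects differed by the test of the difference itself, all among sets other than the brightest of their gene. RPL37 at 224763_at had a difference of effects of 2.26 ± 0.24 (SE; adjusted p = 0.00575, limma), from 1.85 with CEP701 and -0.42 with PRMT5 shRNA. RPL37 at 224767_at had 1.99 ± 0.26 (adjusted p = 0.0148, limma), from 1.82 and -0.17. RPL31 at 200962_at had 2.03 ± 0.25 (adjusted p = 0.0131, limma), from 1.56 and -0.47. The brightest sets of both genes were not separated in either arm.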

How the results depend on the processing

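The number of members higher with CEP701, 0 in the fit reported, was 1 with an added constant of 1, 4 with the mean of a gene's probe sets, 3 without _x_at sets and 1 with the drug arm fitted alone. With 1 array left out it was 0 to 1, and the median of members -0.0965 to 0.122. The members' median with CEP701 was -0.195 with equal medians and -0.484 with poly-A scaling, both beside shifts of all genes. For the difference of effects, 2 were higher with the mean of probe sets and 1 without _x_at sets; the median was -0.139 with equal medians, -0.483 with poly-A scaling and -0.0628 to 0.158 with 1 array left out. With poly-A scaling 2 results turned in direction, RPL35A in the difference of effects (-0.0442) and RPL36 with CEP701 (-0.179). For PRMT5 shRNA the counts were 0 throughout, and the median was -0.135 to 0.043 with 1 array left out.

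Between the controls, the number higher was 2 with the stricter filter, 9 with quantile normalization, 1 with poly-A scaling, 7 with the mean of probe sets, 1 without the paralogs, 8 with arrays scaled to ribosomal proteins (chosen after seeing the data) and 2 to 4 with 1 array left out. The number lower was 0 with no filter, 14 with equal medians, 9 with poly-A scaling and 0 to 4 with 1 array left out. The median was 0.0461 with quantile normalization, -0.424 with equal medians, -0.514 with poly-A scaling and -0.218 to -0.00522 with 1 array left out. With ribosomal protein scaling it was 0.00962, a value near 0 that this scaling fixes in advance. For additional probe sets with CEP701, a fit chosen after seeing the data, the number higher was 5 with no filter, 5 with equal medians, 3 with poly-A scaling and 1 to 10 with 1 array left out. The cause was not tested, apart from fewer arrays in the last.

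With the replicate block on the shRNA arm, 2 members were higher with CEP701, 2 in the difference of effects, and 7 lower between the controls. With a replicate block on both arms these were 2, 1 and 7, and 1 was lower with CEP701. The block changed no count of members for PRMT5 shRNA. With probe sets that also name intronic small RNAs, 71 genes were tested, with 0 calls for CEP701 or PRMT5 shRNA.

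Whether signals near the top of the scale compress differences was not tested, and 2 arrays a group limit every comparison.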
